A study of Mus musculus with 6 samples.

Results

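Ribosomal protein pseudogenes were examined in RNA-seq libraries of immature NK cells from mouse BM. The cells, called CD27SP, carried NK1.1 and CD27 but not CD11b, and represent an early stage of NK cell development. A pseudogene was included when its symbol began with Rpl or Rps and contained "-ps", when the deposited tables held a transcript of it, and when its estimated counts summed to 60 or more over the 6 libraries. Of 25690 gene symbols in the tables, 9 were ribosomal protein pseudogenes and 5 of these reached the limit: Rpl10-ps3, Rpl27-ps3, Rps12-ps3, Rpl36a-ps1 and Rpl7a-ps5. They were thus chosen by their summed counts, which are given as a description only. The other 291 of the 300 ribosomal protein pseudogene symbols in the GENCODE M21 annotation had no transcript in the tables. They have no counts here, and only their sequences were compared.

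The libraries came from Ncr1cre Myc wt/wt mice (3 libraries) and Ncr1cre Myc fl/fl mice (3 libraries), each with the replicate numbers 1, 2 and 4. Both genotypes carry the Cre recombinase in the Ncr1 locus, on a C57BL/6 background, and the methods give sex- and age-matched mice of 6 to 14 weeks. In fl/fl mice Cre acts only once a cell expresses NKp46, so the excision of Myc is limited to NKp46+ cells and need not be complete. No source states whether each library was 1 mouse or a pool, so P-values measure the spread between these libraries.

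Ribosomal proteins are made in every growing cell, and each cytosolic ribosomal protein is encoded in the mouse by a parent gene with introns. Their abundant mRNAs have often been copied back into the genome by retrotransposition, which leaves intronless processed pseudogenes, many with the remnant of a poly(A) tail. Where such a copy has kept the sequence of its parent, a short read from the parent mRNA fits both. A quantifier that assigns reads by probability then divides them between the copies, so a pseudogene can be given counts without being transcribed. Myc is a transcription factor known to raise the expression of ribosomal protein genes.

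The sequences decide what the tables can tell apart. Transcript sequences of GENCODE M21 (GRCm38) were aligned to the best matching protein-coding transcript of the parent. Rpl10-ps3 (ENSMUSG00000058443.5, chromosome 9 from 50344201 to 50344968, minus strand, 768 bases) was identical to Rpl10 on X over all 740 aligned bases. It ended in a run of 28 bases with no counterpart in Rpl10, all of them A. Rps12-ps3 (ENSMUSG00000067038.5, chromosome 19 from 59322290 to 59322783, plus strand) lies in an intron of Pdzd8, a gene of the opposite strand, and all of its 494 bases were found in Rps12 on chromosome 10. All 5 pseudogenes consisted of 1 exon. M21 classes Rpl10-ps3, Rps12-ps3 and Rpl36a-ps1 as protein coding, and Rpl27-ps3 and Rpl7a-ps5 as processed pseudogenes.

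The start of the coding stretch is shown for the copies on chromosomes 9 and 19 because every base of it is also that of the parent transcript, so that a read from here cannot be placed. The last sequence is the end of the Rpl10-ps3 alignment, on chromosome 9 from 50344213 to 50344242, with the A run that follows the last base shared with Rpl10 in capitals.
Rpl10-ps3 and Rpl10, first 90 coding bases: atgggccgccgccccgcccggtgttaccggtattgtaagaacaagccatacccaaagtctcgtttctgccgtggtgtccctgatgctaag
Rps12-ps3 and Rps12, first 90 coding bases: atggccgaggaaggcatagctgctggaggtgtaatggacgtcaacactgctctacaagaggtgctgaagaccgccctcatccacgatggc
Rpl10-ps3, end of the alignment: atcaagttcgcttaAAAAAAAAAAAAAAAA

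Rpl36a-ps1 and Rpl7a-ps5 differed from their parents by substitutions. Rpl36a-ps1 (ENSMUSG00000060377.4, chromosome 14 from 98993870 to 98994318, minus strand, 449 bases) had 7 substitutions in 438 aligned bases to Rpl36a on X. Counted from the 5′ end of the Rpl36a-ps1 transcript, with the base of Rpl36a first, these were C38T, C39T, T111C, G134A, T138C, C141T and G157A. All 7 were transitions, and of the 6 codons hit, 3 kept the amino acid of Rpl36a. Rpl7a-ps5 (ENSMUSG00000071052.4, chromosome 17 from 57838430 to 57839221, minus strand, 792 annotated bases and 807 in the tables) lies in an intron of Cntnap5c, a gene of the opposite strand. It had 9 substitutions against Rpl7a on chromosome 2 and lacked 6 bases of the parent in 1 place, a whole number of codons. The substitutions were C41T, A186G, C217T, A342G, A396G, G472A, C480T, T516C and A771G, again all transitions, and 6 of the 9 codons hit kept the amino acid.

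Stretches of both pairs are shown because they carry bases at which a read of the pseudogene differs from one of the parent, though not always from those of other copies. Capitals mark the bases at which the copies differ, including the 6 bases that Rpl7a-ps5 lacks. The Rpl36a-ps1 stretch is chromosome 14 from 98994151 to 98994300 and holds all 7 substitutions, and the Rpl7a-ps5 stretch is chromosome 17 from 57838643 to 57838762.
Rpl36a-ps1: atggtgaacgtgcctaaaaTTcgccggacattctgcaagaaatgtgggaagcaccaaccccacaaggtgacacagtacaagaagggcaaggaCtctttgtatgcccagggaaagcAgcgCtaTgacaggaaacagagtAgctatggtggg
Rpl36a: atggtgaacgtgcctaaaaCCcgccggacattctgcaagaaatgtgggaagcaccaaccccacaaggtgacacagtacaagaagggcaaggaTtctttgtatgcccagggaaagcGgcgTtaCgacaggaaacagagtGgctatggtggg
Rpl7a-ps5: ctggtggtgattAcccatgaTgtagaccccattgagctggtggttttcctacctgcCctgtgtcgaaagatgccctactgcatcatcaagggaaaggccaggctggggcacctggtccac
Rpl7a: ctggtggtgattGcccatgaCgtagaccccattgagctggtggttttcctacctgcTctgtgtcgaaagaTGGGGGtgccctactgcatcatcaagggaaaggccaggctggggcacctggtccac

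Rpl27-ps3 (ENSMUSG00000073640.3, chromosome 18 from 6332632 to 6333042, plus strand) was identical to Rpl27 on chromosome 11 over all 411 annotated bases. The tables list Rpl27-ps3 at 475 bases, and the additional bases were not compared.

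Each pseudogene transcript, as annotated in M21, was cut into all words of 31 bases, the word length that kallisto uses by default. It was also cut into all windows of 100 bases, the read length. The additional bases that the tables list for Rpl27-ps3 and Rpl7a-ps5 were not part of this comparison. Rpl27-ps3 had none of 381 words and Rps12-ps3 none of 464 words that were absent from every other transcript of the tables. Rpl10-ps3 had 25 of 738 words of its own (3.39%), and all 25 reached into the A run at its end. Rpl36a-ps1 had 107 of 419 words (25.5%) and Rpl7a-ps5 252 of 762 words (33.1%) of its own. Windows of 100 bases were searched on the same strand only. Of these, 28 of 669 were found only in Rpl10-ps3, 162 of 350 only in Rpl36a-ps1 and 481 of 693 only in Rpl7a-ps5. The Rpl10, Rpl27 and Rps12 transcripts held 59 of 769, 203 of 584 and 90 of 554 words, respectively, that their pseudogene lacked.

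**Figure D1:**
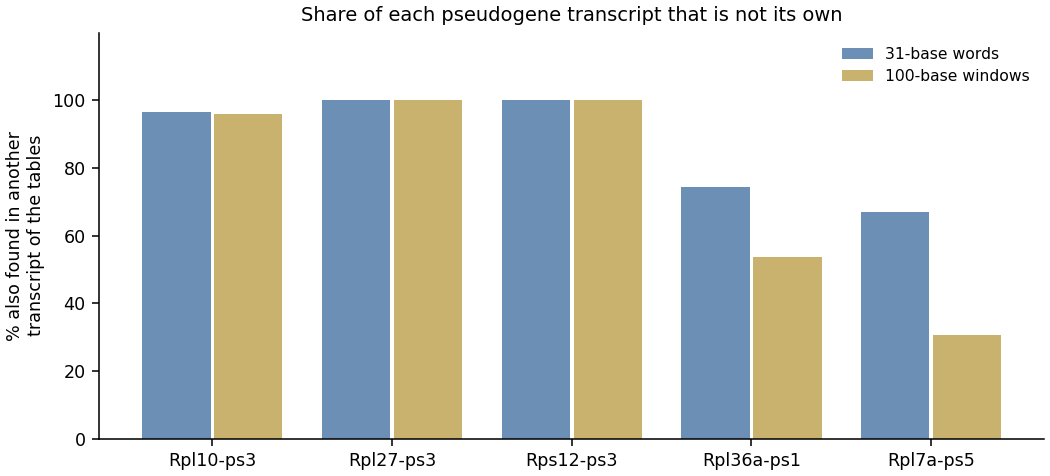
Percentage of the 31-base words (blue, either strand) and 100-base windows (ochre, same strand) of each M21 pseudogene transcript that also occur in another transcript of the tables. Rpl27-ps3 and Rps12-ps3 reach 100% on both measures, while 33.1% of the words of Rpl7a-ps5 are its own. The bases that the tables list beyond M21 for Rpl27-ps3 and Rpl7a-ps5 were not compared.

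Other transcripts shared words with the members as well. The library kit does not mark strand, so a match on the opposite strand is as good as one on the same strand. Gm44510 held 433 of the Rps12-ps3 words (93.3%) on the opposite strand and had 4.85 ± 3.18 CPM in wt/wt and 2.08 ± 0.77 CPM in fl/fl libraries (SD, n = 3). Nphs1 held 210 of them (45.3%) and stayed below 1 CPM, with 0.916 CPM as its highest value. Ciapin1 held 166 of the Rpl7a-ps5 words (21.8%) on the opposite strand, and Dtnb held 54 of the Rpl36a-ps1 words (12.9%). For Rps12-ps3 the parent is therefore not the only transcript of the tables that fits such reads. Further copies were annotated outside the tables and thus had no counts here. Gm11518 held all 381 words of Rpl27-ps3, and Rpl10-ps1 held 615 of the 738 words of Rpl10-ps3 (83.3%). Gm5619 held 532 of the Rpl7a-ps5 words, more than the 502 in Rpl7a, and 670 of the 762 Rpl7a-ps5 words and 318 of the 419 Rpl36a-ps1 words occurred in some other M21 transcript.

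The estimated counts carried the mark of such a division. A count that is not whole shows that at least 1 read was split between transcripts. Of 29 values above 0 among the 5 members and 6 libraries, 28 lay more than 0.01 from a whole number, and each of the 5 members had such values. The share of such values over all genes is not given here, so the count describes the members only. The depth behind these values was 8101219 counts in wt/wt library 1 and 54550907 to 64962491 counts in the other 5 libraries.

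Rpl10-ps3 had the highest counts. Per length it had 513, 799 and 919 TPM in wt/wt libraries 1, 2 and 4, against 482, 248 and 246 TPM for its parent Rpl10, a protein of the large subunit that joins late in assembly. In fl/fl libraries 1, 2 and 4 it had 473, 555 and 516 TPM, against 207, 188 and 194 TPM for Rpl10. The pseudogene was thus listed above its parent in every library, with the smallest distance in wt/wt library 1. Its share of the estimated counts of the pair was 51.4% in wt/wt library 1 (95% Wilson interval 49.7% to 53.0%) and 74.3% and 76.9% in wt/wt libraries 2 and 4. In the fl/fl libraries the share was 67.2%, 72.6% and 70.3%. The lowest share belonged to the shallow library, and its interval, which covers counting error only, did not reach that of any other.

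Rpl27-ps3 was also listed above its parent Rpl27, another large subunit protein, in all libraries. Its TPM values were 741, 734 and 864 in wt/wt and 453, 484 and 428 in fl/fl libraries 1, 2 and 4. Rpl27 had 146, 345 and 352 TPM in wt/wt and 202, 158 and 159 TPM in fl/fl libraries. The share of Rpl27-ps3 in the counts of the pair was 76.4%, 61.1% and 64.5% in wt/wt and 62.3%, 69.6% and 66.6% in fl/fl libraries. Here the shallow library had the highest share (Wilson interval 74.4% to 78.3%), the opposite of Rpl10-ps3.

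Rps12-ps3 was the member whose share moved most. In wt/wt library 1 it took 17.3 estimated counts against 990.8 for Rps12, a protein of the small subunit, a share of 1.71% (Wilson interval 1.06% to 2.68%). In wt/wt libraries 2 and 4 it took 2885 and 3661 counts, shares of 49.8% and 45.2%. In fl/fl libraries 1, 2 and 4 it took 883.1, 1397 and 1287 counts, shares of 32.4%, 51.2% and 46.7%. The pair together had 399, 397 and 469 TPM in wt/wt libraries and 179, 190 and 175 TPM in fl/fl libraries. The sum in wt/wt library 1 was close to that in wt/wt library 2, while the part given to Rps12-ps3 was 8.69 against 223 TPM.

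The members that differed from their parents by substitutions took hardly any counts. Rpl36a-ps1 had 3.64, 19.5 and 71.5 estimated counts in wt/wt and 33.6, 0 and 17.2 in fl/fl libraries 1, 2 and 4, at most 1.47% of the counts of the pair with Rpl36a, a large subunit protein. Rpl7a-ps5 had 1.63, 23.8 and 28.4 counts in wt/wt and 7.61, 23.9 and 11.3 in fl/fl libraries, at most 0.482% of the pair with Rpl7a, likewise of the large subunit. In TPM, Rpl36a-ps1 reached 4.87 and Rpl7a-ps5 reached 1.03 in their highest library, whereas Rpl36a and Rpl7a had means of 281.8 ± 51.1 and 292.5 ± 68.4 TPM in wt/wt libraries (SD, n = 3). Across the 5 members, the 3 without a mismatch in the bases aligned to their parents took 1.71% to 76.9% of the counts of the pair, and the other pair of members took 0% to 1.47%, which is a description of 5 pairs and not a test.

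**Figure D2:**
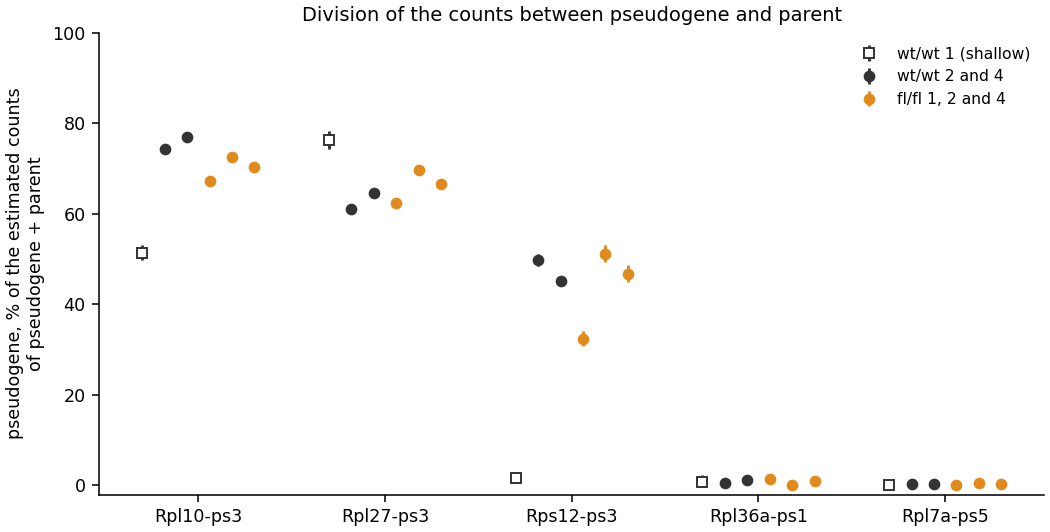
Percentage of the estimated counts of pseudogene plus parent that was assigned to the pseudogene, for each library (squares, wt/wt library 1; dark circles, wt/wt libraries 2 and 4; orange circles, fl/fl libraries 1, 2 and 4), with 95% Wilson intervals that cover counting error only. The square lies below the circles for Rpl10-ps3 (51.4%) and Rps12-ps3 (1.71%) and above them for Rpl27-ps3 (76.4%).

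The 2 values next to the limit of 60 summed counts were 96.5 for Rpl7a-ps5 and 145.4 for Rpl36a-ps1 on its inner side. On its outer side, Rpl9-ps6 had 7.87 and Rpl13a-ps1 had 6.02 summed counts. Rpl9-ps1 had 4.00 and Rpl36-ps4 was listed at 0 in every library, which does not show that it was absent. Rpl13a-ps1, Rpl36-ps4 and Rpl9-ps1 had between 76.1% and 94.4% of words of their own. Rpl9-ps6 differed from Rpl9 by 1 substitution, G293A, in 692 aligned bases and had 7.75% of words of its own in M21. Rpl9-ps6 has 714 annotated bases and 691 in the tables, a difference that was not resolved. It took 7.87 counts in fl/fl library 2 and none elsewhere, beside 1916 to 16915 counts of Rpl9. Near identity to the parent thus did not always come with a large share of its counts.

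The parent's counts were spread over several transcripts, and for Rpl10 and Rpl27 their division in wt/wt library 1 was also unlike that in the other libraries. Rpl10 transcript ENSMUST00000151702 took 492.7 counts there and at most 64.5 in any other library. Rpl27 transcript ENSMUST00000077856 took 88.9 counts in that library and ENSMUST00000107249 took 318.1, whereas in the other 5 libraries ENSMUST00000077856 was the higher of them. Rps12 transcript ENSMUST00000218107 took 949.2 of the 990.8 Rps12 counts of wt/wt library 1. Rps12 transcript ENSMUST00000218221 took 722.2 counts in wt/wt library 4 and fewer than 1 count in each other library. The 490-base Rps12 transcript ENSMUST00000073926 was listed at 0 in all 6 libraries.

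**Figure D3:**
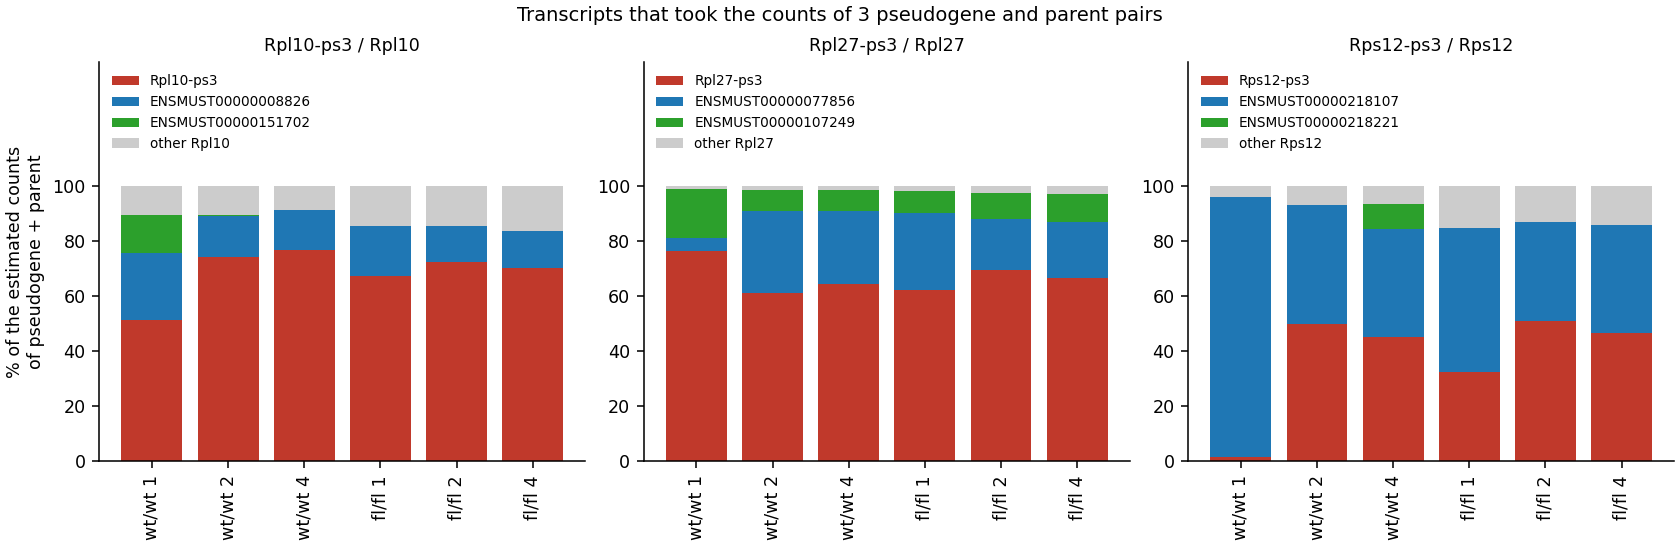
Percentage of the estimated counts of pseudogene plus parent taken by the pseudogene (red), by each parent transcript that reached 8% in at least 1 library (other colours) and by the remaining parent transcripts (grey). In wt/wt library 1, the Rpl10 transcript ENSMUST00000151702 takes a part that it does not take in the other libraries, and the Rps12 transcript ENSMUST00000218107, the highest Rps12 transcript in every library, takes nearly all of the pair.

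Genotypes were then compared with edgeR on all 15474 genes with enough counts. The fit used TMM normalization with a block for the replicate number, since the study's own comparison was a paired one. A gene passed when its adjusted p was under 0.01 and its log2 fold change was 0.5 or more in size. All 5 members were tested, and all 5 fitted log2 fold changes were below 0. Only Rpl27-ps3 passed the threshold, as lower in fl/fl, so 1 of 5 members was called lower where 135 of 15474 genes (0.872%) were. None was called higher, against 198 of 15474 genes (1.28%). None had an unadjusted p below 0.05 as higher, and DESeq2 and limma-trend called none higher either, against 4.16% and 1.07% of all tested genes. The median log2 fold change was −0.63 over the members, −0.93 over the 79 cytosolic ribosomal protein genes, of which 47 passed as lower and 0 as higher, and 0.014 over all tested genes. Of the 79 genes, 54 passed as lower without the replicate block, 71 in DESeq2, 38 in limma-trend, 27 without replicate 2, 22 without replicate 4 and 5 without replicate 1. Myc was lower in fl/fl, with a log2 fold change of −1.44 (adjusted p = 0.00189). In bulk RNA, fewer cells of a type and less RNA per cell cannot be told apart.

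Rpl27-ps3 had 180.2, 158.0 and 193.3 CPM in wt/wt libraries 1, 2 and 4 and 94.3, 104.2 and 90.3 CPM in fl/fl libraries 1, 2 and 4. Every fl/fl library was below every wt/wt library, as in 2336 of 15474 tested genes (15.1%). The means were 177.1 ± 17.8 and 96.3 ± 7.19 CPM (SD, n = 3), a log2 fold change of −0.88 (SE 0.15, adjusted p = 0.00825 in edgeR). Its parent Rpl27 had 55.7, 100.7 and 106.4 CPM in wt/wt and 57.0, 45.5 and 45.3 CPM in fl/fl libraries. The low value of Rpl27 in wt/wt library 1 lay within the range of the fl/fl libraries, and the log2 fold change of −0.80 (SE 0.23, adjusted p = 0.0659) did not pass. The call on Rpl27-ps3 was lost when any replicate number was left out, with adjusted p from 0.0109 to 0.0348. Its log2 fold change was then −0.85, −1.02 and −0.79 without replicates 1, 2 and 4, respectively.

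Rpl10-ps3 had 236.8, 331.3 and 397.9 CPM in wt/wt and 189.9, 229.3 and 210.3 CPM in fl/fl libraries 1, 2 and 4. The groups did not overlap, and wt/wt library 1 was only slightly above fl/fl library 2. The log2 fold change was −0.59 (SE 0.15, adjusted p = 0.0445), which did not pass in edgeR, while it passed in DESeq2 (adjusted p = 0.00535), which called 537 of 15474 genes (3.47%) lower. For Rpl10, wt/wt library 1 was the highest, with 224.1 CPM against 114.7 and 119.7 in wt/wt libraries 2 and 4. The fl/fl libraries had 92.6, 86.6 and 88.8 CPM of Rpl10, a log2 fold change of −0.70 (SE 0.18, adjusted p = 0.0480). Without replicate 1 the log2 fold change of Rpl10 was −0.42 (adjusted p = 0.173). It was −0.40 without wt/wt library 1 and without the block, a fit chosen after seeing the data.

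Rps12-ps3 had 2.21, 51.1 and 55.9 CPM in wt/wt and 15.0, 25.6 and 21.6 CPM in fl/fl libraries 1, 2 and 4. Both deeper wt/wt libraries were above all fl/fl libraries, and the shallow wt/wt library was below them all. The log2 fold change was −0.29 (SE 0.58, adjusted p = 0.837) and moved to −0.85 without the replicate block (adjusted p = 0.498) and to −0.06 in DESeq2. It turned to 0.26 without replicate 2, to 0.48 without replicate 4 and to 0.12 in limma-trend. Rps12 had 128.8, 51.5 and 67.7 CPM in wt/wt and 31.3, 24.4 and 24.6 CPM in fl/fl libraries, a log2 fold change of −1.53 (SE 0.19, adjusted p = 0.00310). Rps12 was thus highest in the library in which Rps12-ps3 was lowest. Without wt/wt library 1, an alternative chosen after seeing the data and fitted without the block, the log2 fold changes were −1.38 (adjusted p = 0.00948) for Rps12-ps3 and −1.17 (adjusted p = 0.00868) for Rps12. In that fit 3 of the 5 members passed as lower, Rpl10-ps3 and Rpl27-ps3 besides Rps12-ps3, where 148 of 15474 genes (0.956%) did. Without the whole of replicate 1, none of the 5 did, and 10 of 15474 genes (0.0646%) were called lower.

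The weakly counted members gave no call. Rpl36a-ps1 had 0.647 ± 0.389 CPM in wt/wt and 0.288 ± 0.289 CPM in fl/fl libraries (SD, n = 3), and the groups overlapped. Its log2 fold change was −1.81 (SE 0.85, adjusted p = 0.249), and it moved to −2.76 without replicate 1 and to −1.04 without replicate 2. Rpl7a-ps5 had 0.371 ± 0.096 and 0.253 ± 0.163 CPM, also overlapping, with a log2 fold change of −0.63 (SE 0.64, adjusted p = 0.637), which moved to −1.10 without replicate 2 and to −0.28 without replicate 4. Both rest on 0 to 71.5 counts per library. Rpl7a fell, with 157.4 ± 30.8 CPM in wt/wt and 84.7 ± 4.64 CPM in fl/fl libraries (log2 fold change −0.88, SE 0.15, adjusted p = 0.00937). Rpl36a had 71.3 ± 11.5 and 35.9 ± 5.54 CPM (log2 fold change −0.99, SE 0.18), just outside the threshold at an adjusted p of 0.0111. Of the 5 parents, Rps12 and Rpl7a passed as lower. The call on Rps12 was lost without the replicate block (adjusted p = 0.0102) and without replicate 1 (adjusted p = 0.0144). The call on Rpl7a was lost in limma-trend (adjusted p = 0.0118) and when any replicate number was left out (adjusted p from 0.0189 to 0.0348). In DESeq2, Rpl10 (adjusted p = 0.00915) and Rpl36a (adjusted p = 3.07e-05) passed as well. Rpl36a also passed in edgeR without the replicate block (adjusted p = 0.00704).

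**Figure D4:**
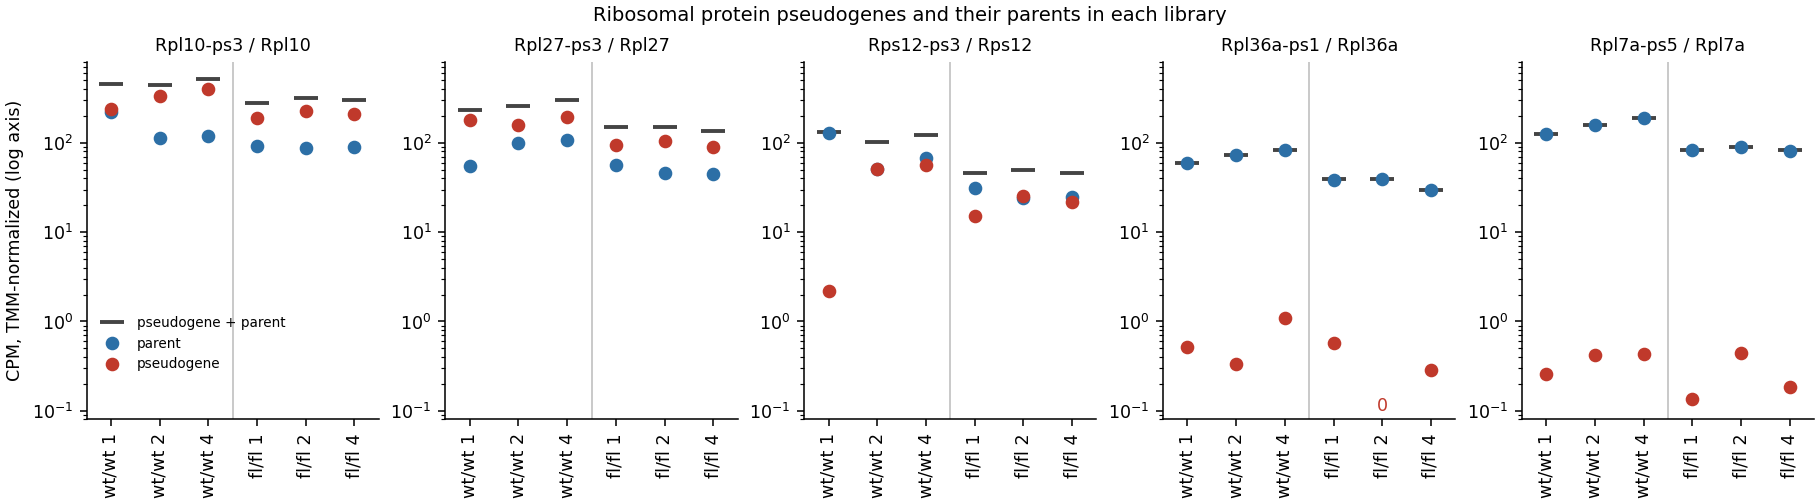
TMM-normalized CPM on a log axis in each library for the pseudogene (red), its parent (blue) and their sum (dark bars), with wt/wt libraries left and fl/fl libraries right of the line; a value of 0 is printed as 0. The sums of all 5 pairs lie lower in every fl/fl library than in every wt/wt library, an order found in 15.1% of all tested genes, whereas Rps12-ps3 spans 2.21 to 55.9 CPM among the wt/wt libraries.

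Adding the counts of a pseudogene to those of its parent takes the division between them out of the comparison. The sum of Rpl10 and Rpl10-ps3 was 461.0, 446.0 and 517.6 CPM in wt/wt and 282.5, 315.9 and 299.1 CPM in fl/fl libraries. The sum of Rpl27 and Rpl27-ps3 was 235.9, 258.7 and 299.7 CPM in wt/wt and 151.2, 149.8 and 135.5 CPM in fl/fl libraries. The sum of Rps12 and Rps12-ps3 was 131.0, 102.6 and 123.6 CPM in wt/wt and 46.3, 49.95 and 46.1 CPM in fl/fl libraries. In none of the 5 sums did the groups overlap, where 2335 of 15469 genes (15.1%) had every fl/fl library below every wt/wt library, and the fl/fl mean was 63.0% of the wt/wt mean for Rpl10, 55.0% for Rpl27, 39.9% for Rps12, 50.3% for Rpl36a and 53.9% for Rpl7a.

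In the fit with added counts, 3 of the 5 sums passed as lower, where 136 of 15469 genes (0.879%) did. The log2 fold changes were −1.32 for the Rps12 sum (SE 0.15, adjusted p = 0.00193), −0.86 for the Rpl27 sum (SE 0.15, adjusted p = 0.00890) and −0.88 for the Rpl7a sum (SE 0.15, adjusted p = 0.00925). The Rpl36a sum (−0.995, adjusted p = 0.0110) and the Rpl10 sum (−0.67, adjusted p = 0.0178) did not pass. Rpl27 was the parent that gained a call, and its SE went from 0.23 to 0.15. The Rps12 sum was 0.21 less negative on the log2 scale than Rps12 taken alone. For Rpl36a and Rpl7a the addition moved the log2 fold change by less than 0.01. Without replicate 1 no sum passed, where 10 of 15469 genes (0.0646%) were called lower, with adjusted p from 0.0121 to 0.0567, and the log2 fold changes lay between −1.23 and −0.64.

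**Figure D5:**
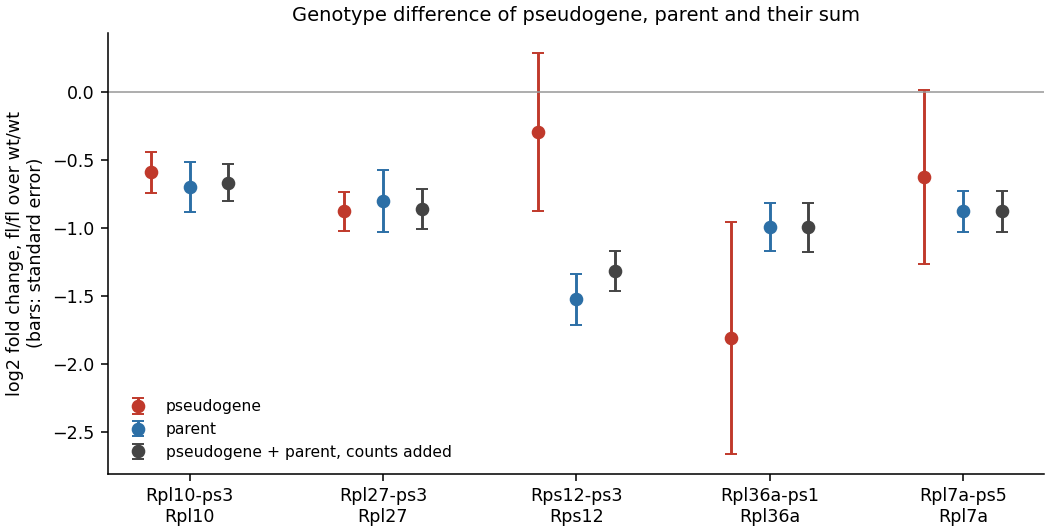
Log2 fold change of fl/fl over wt/wt in edgeR, with the SE as bars, for each pseudogene (red), its parent (blue) and the fit in which their counts were added (dark). For Rps12 the pseudogene (−0.29) and the parent (−1.53) lie apart and the sum lies at −1.32, while for Rpl10 and Rpl27 the 3 values lie within 1 SE of each other.

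Whether a member moved apart from its parent was tested on the log2 ratio of their counts in each library, by a two-sided exact permutation test over the 6 libraries, which cannot give a p below 0.10. The mean log2 ratio of Rpl10-ps3 to Rpl10 was 1.11 ± 0.90 in wt/wt and 1.23 ± 0.19 in fl/fl libraries (SD, n = 3, exact p = 1.0). For Rpl27-ps3 to Rpl27 it was 1.07 ± 0.55 and 0.97 ± 0.23 (exact p = 0.9). For Rps12-ps3 to Rps12 it was −2.03 ± 3.27 and −0.39 ± 0.59 (exact p = 0.6). For Rpl36a-ps1 and Rpl7a-ps5 the exact p was 0.9 and 0.8, and all 5 values were 1 after adjustment over the 5 ratios. The fitted log2 fold change of a member was higher than that of its parent by a median of 0.11. This median moved to 0.015 without replicate 2 and to 0.41 without replicate 4. It was −0.18 in the fit without wt/wt library 1 and without the block, which was chosen after seeing the data. The spread of the ratio was wider among wt/wt than among fl/fl libraries for Rpl10-ps3, Rpl27-ps3 and Rps12-ps3, and wt/wt library 1 was the extreme value of each. The order was reversed for Rpl36a-ps1 (SD 0.73 in wt/wt and 3.33 in fl/fl) and Rpl7a-ps5 (0.16 and 0.79), both with few counts.

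The 5 members together held 0.0399%, 0.0553% and 0.0654% of all estimated counts in wt/wt and 0.0305%, 0.0360% and 0.0320% in fl/fl libraries 1, 2 and 4. Every fl/fl library was below every wt/wt library (exact permutation p = 0.10, the smallest possible). Of the counts on the 79 ribosomal protein genes and the members together, the members held 1.86%, 2.48% and 2.52% in wt/wt and 2.41%, 2.89% and 2.87% in fl/fl libraries. These ranges overlapped (exact permutation p = 0.3). Without Rpl10-ps3, the difference of the group means, fl/fl minus wt/wt, went from −0.0207 to −0.00959 percentage points of all counts and from 0.438 to 0.0661 percentage points of the ribosomal protein counts.

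Markers of other cells moved with the genotype. All 8 NK cell markers were detected in every group, with summed levels of 9202 to 9336 CPM in wt/wt and 10329 to 11471 CPM in fl/fl libraries, and 0 of 8 passed in either direction. All 8 markers of basophils and mast cells passed as higher in fl/fl, with summed levels of 15.1 to 18.5 CPM in wt/wt and 121.6 to 334.3 CPM in fl/fl libraries. Of 8 markers of neutrophils and their progenitors, 4 passed as higher (85.2 to 137.6 CPM against 536.3 to 890.5 CPM). Of 7 erythroid markers, 6 had a log2 fold change above 0 and Klf1 alone passed, as higher (610.8 to 844.8 CPM against 1254 to 1632 CPM). Of 7 B cell markers, 4 were tested and none passed, with summed levels of 4.55 to 8.37 CPM in wt/wt and 11.4 to 15.8 CPM in fl/fl libraries, and Vpreb1 was at 0 in all wt/wt libraries. None of 6 T cell markers passed (253.7 to 509.0 CPM against 272.8 to 358.4 CPM). Their part in the differences of the pseudogenes was not tested.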

How the data were processed

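RNA of CD27SP NK cells was sequenced by the authors with a poly(A) SMART-Seq v4 kit as single-end reads of 100 bases. The deposited tables give, per transcript and library, an estimated count (not normalized), a TPM value scaled by the authors to transcript length and depth, and the length and effective length. The submitters' processing notes name Salmon and GRCh38, whereas the columns are those of kallisto and the identifiers are of mouse; versions are not given in the sources used here. Such quantifiers divide reads that fit several transcripts between them, which can change the values of pseudogenes and parents.

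Of 100583 transcripts, 100239 were matched to GENCODE M21 (GRCm38), and the unmatched held 0.129% to 0.169% of counts. Estimated counts were summed by symbol and rounded. Genes kept by filterByExpr were compared with edgeR 4.0.16 (quasi-likelihood, TMM, replicate number as block, Benjamini-Hochberg) in R 4.3.3. The log2 ratio of counts used a pseudocount of 0.5. DESeq2 1.42.0 and limma-trend 3.58.1 were alternatives, with the block left out, each replicate left out, other filters, scalings and effective-length offsets, and pseudogene counts added to parents. The scripts were tested on simulated data. Transcripts were aligned locally with Biopython 1.88 (match 2, mismatch −3, gap open −5, gap extend −2), and words were searched on both strands. Totals ranged from 8101219 to 64962491 counts per library, and Wilson intervals (95%) cover counting error only.

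Same-numbered libraries did not deviate together (correlations −0.0121, −0.0198 and 0.0505 over 15474 genes), below the limit of 0.1, so pairing by number was not shown. The members and gene lists were chosen with earlier results of these data known. Named are all members, their parents and the symbols next to the limit; further genes were named after their values were seen. A marker each of the erythroid and B cell lists is not reported here, and their counts and sums are without it.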

Additional observations from a re-analysis of the deposited data

How the results depend on the processing

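The count of members past the threshold as lower was 1 with and without the replicate block (Rpl27-ps3 in both), 2 in DESeq2, 0 with library size only, 0 with offsets from effective lengths, 2 at an adjusted p below 0.05 with no limit on the fold change, 0 in each fit that left out a replicate number and 3 without wt/wt library 1, fitted with no block and chosen after seeing the data. The count of parents past the threshold as lower was 2, and 2 without the replicate block (Rpl36a and Rpl7a in place of Rps12 and Rpl7a). It was 4 in DESeq2, 4 with no filter on low counts, 4 at an adjusted p below 0.05, 1 in limma-trend, 1 by the largest adjusted p of the 3 tools, 1 with at least 10 counts in every library, 1 with library size only and 1 with effective-length offsets. It was 0 to 1 with a replicate number left out, 4 without wt/wt library 1, and 0 with pseudogene counts added and replicate 1 left out. With at least 10 counts in every library, 3 members were tested and all 3 were below 0, since Rpl36a-ps1 and Rpl7a-ps5 were no longer tested. The log2 fold change of Rps12-ps3 ranged from −1.19 (without replicate 1) to 0.48 (without replicate 4) when a replicate number was left out, was 0.26 without replicate 2 and was 0.12 in limma-trend. The median log2 fold change ranged from −1.02 (without replicate 2) to −0.44 (without replicate 4) over the members and from −1.17 to −0.77 over the parents, in all alternatives run. Over all genes, 10 were called lower without replicate 1, 55 without replicate 2 and 161 without replicate 4, against 135 with all libraries. They were 184 without the replicate block, 132 of 11324 with at least 10 counts in every library and 378 of 20689 with no filter on low counts. At an adjusted p below 0.05 with no limit on the fold change 523 were called lower, in DESeq2 537 and in limma-trend 99. The number was 25 with library size only, 63 with effective-length offsets and 148 without wt/wt library 1. The cause of these changes was not tested. Rpl36a-ps1 and Rpl7a-ps5 rest on at most 71.5 counts in a library.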

Other observations

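Pseudogenes outside the members gave a mixed picture. Of 108 other symbols with "-ps" in the tables, 22 were tested, none passed as lower or higher in edgeR, DESeq2 or limma-trend, and 2 had an unadjusted p below 0.05 in edgeR, both as lower. Their median log2 fold change was −0.24, against −0.63 for the ribosomal protein pseudogenes and 0.014 for all tested genes. Most of the 22 were olfactory receptor pseudogenes with low values, the highest mean being 3.82 CPM (Olfr839-ps1 in wt/wt libraries). Of 40 processed pseudogenes with a Gm symbol, not sorted by parent family, 8 were tested with a median of −0.13. None of these passed in edgeR, DESeq2 called Gm8186 alone, and Gm8186 was the 1 with an unadjusted p below 0.05 in edgeR (45.8 ± 6.09 CPM in wt/wt and 26.8 ± 3.02 CPM in fl/fl libraries, SD, n = 3; log2 fold change −0.77, adjusted p = 0.0213 in edgeR).

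Pseudogenes and parents of 3 other families were picked after their values were seen. Nutf2-ps1 had 411.7 CPM there and 111.2 and 111.6 CPM in wt/wt libraries 2 and 4, while its parent Nutf2, a carrier in nuclear import, had 6.89 CPM there and 55.9 and 56.9 CPM. In fl/fl libraries 1, 2 and 4, Nutf2-ps1 had 63.8, 85.6 and 77.4 CPM and Nutf2 had 39.1, 23.6 and 29.2 CPM. The log2 fold changes were −1.16 (adjusted p = 0.0976) and −0.15 (adjusted p = 0.927) in edgeR. Ftl1-ps1 had 68.6, 80.1 and 71.0 CPM in wt/wt and 68.9, 72.1 and 62.6 CPM in fl/fl libraries, so its wt/wt library 1 lay within the range of the others. Its parent Ftl1, the ferritin light chain, had 1425, 1086 and 1069 CPM in wt/wt and 1175, 1304 and 1181 CPM in fl/fl libraries, highest in wt/wt library 1. Pcna-ps2 had 1.43, 0.213 and 0.229 CPM in wt/wt and 0.136, 0.0366 and 0 CPM in fl/fl libraries. Its parent Pcna, the sliding clamp of DNA replication, had 417.0, 311.7 and 326.4 CPM in wt/wt and 218.1, 234.5 and 241.5 CPM in fl/fl libraries.

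Of the 291 annotated ribosomal protein pseudogenes without a transcript in the tables, 264 held at least 1 word of 31 bases that occurs in a ribosomal protein transcript of the tables, 102 held 50% or more of their words there and 11 held all of them. The median was 33.6% of the words.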
